A study of Homo sapiens with 15 samples.

Results

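The comparison described here set HGrC1 cells carrying the mutant transcription factor FOXL2C134W together with FOXO1 against HGrC1 cells carrying wild-type FOXL2 without FOXO1. It rested on 6 of the 15 RNA-seq libraries of the series, chosen by their transfected plasmids: replicates A, B and C of FOXL2C134W+FOXO1 and replicates A, B and C of FOXL2WT. HGrC1 is an immortalized, non-luteinized human granulosa cell line whose own FOXL2 alleles are normal. Every library of both groups also received SMAD3, so SMAD3 was shared by both sides, whereas FOXO1 was on the mutant side only. FOXO1 was the 3A form, a constitutively active protein with alanine substitutions, expressed from pCDNA3, and both FOXL2 forms were expressed from pCS2+. Cells at passage 14 were transfected by lipofection for 4 h in serum-free medium and lysed after a further 24 h of serum-free culture. The other 9 libraries were empty vectors (Vectors), FOXL2C134W with SMAD3, and FOXL2WT with SMAD3 and FOXO1, with 3 libraries each. All cultures came from 1 cell line, so the p-values below measure the spread between these cultures, which may be technical, and not between donors.

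FOXL2 is a forkhead transcription factor that maintains the identity of ovarian granulosa cells, and the C134W substitution is the defining mutation of adult granulosa cell tumors. SMAD3 carries signals of TGF-beta and activin receptors to the nucleus, where it binds DNA weakly and depends on partner factors such as FOXL2. FOXO1 is another forkhead factor, held in the cytoplasm by AKT phosphorylation and known for driving genes of cell cycle arrest, apoptosis and stress resistance. It is abundant in granulosa cells of growing follicles.

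Total counts ran from 14992137 to 23390238 in the FOXL2WT libraries and from 21831842 to 23502340 in the FOXL2C134W+FOXO1 libraries. Of 12 granulosa markers, GATA4, CDH2, KRT18 and FST were among the 8 that passed the filter on low counts, and none of the 8 passed the test between the groups with edgeR, with 1 at an unadjusted p under 0.05 and 0 by DESeq2. FSHR, the follicle-stimulating hormone receptor, was at 0 counts in all 6 libraries, and INHA and CYP19A1 had at most 3 counts. The summed level of the granulosa list ran from 2550 to 2650 CPM in FOXL2WT and from 2680 to 2770 CPM in FOXL2C134W+FOXO1. In the same order of groups, summed epithelial markers ran from 2070 to 2170 CPM and from 1980 to 2300 CPM. Fibroblast or smooth muscle markers ran from 1260 to 1440 CPM and from 1280 to 1470 CPM. The epithelial sums thus lay near those of the granulosa list, so the sums do not single out granulosa cells. Summed leukocyte markers ran from 92.9 to 98.5 CPM and from 90.5 to 97.0 CPM, and endothelial markers from 27.2 to 30.4 CPM and from 26.1 to 31.2 CPM. Theca or luteal markers ran from 3.18 to 3.55 CPM and from 2.86 to 3.83 CPM, and oocyte markers from 7.87 to 9.07 CPM and from 6.45 to 7.02 CPM.

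The transfected genes were examined first. FOXL2 (GRCh38 chr3:138944224-138947137) had normalised levels, in counts per 1000000 of the scaled library (CPM), of 562, 566 and 554 in the FOXL2WT libraries and of 142, 176 and 139 in the FOXL2C134W+FOXO1 libraries. FOXL2 transcripts were thus 3.68-fold lower on the mutant side (log2 fold change -1.88 ± 0.10 SE, adjusted p = 9.0e-10), against a mean of 8.73 CPM with Vectors. SMAD3 (chr15:67063763-67195173), which both groups received, was at 2890, 2820 and 2590 CPM with FOXL2WT and at 379, 411 and 385 CPM with FOXL2C134W+FOXO1. This 7.07-fold difference (log2 fold change -2.82 ± 0.05, adjusted p = 1.1e-17) was the largest of any gene with a mean level of at least 5 CPM; SMAD3 remained above the Vectors mean of 249 CPM by 0.65 on the log2 scale. FOXO1 (chr13:40555667-40666641) rose from 11.8, 11.9 and 13.0 CPM to 43.3, 47.2 and 39.1 CPM, a 3.52-fold difference (log2 fold change 1.81 ± 0.10, adjusted p = 9.0e-10). FOXO1 reached a mean of 117 CPM where it was expressed with FOXL2WT, so FOXO1 transcripts were the lower on the mutant side (log2 difference -1.44 ± 0.08 between the FOXO1 groups). The sizes depended on the method: with DESeq2 and transcript length offsets the log2 fold change was 6.54 for FOXO1, -3.71 for SMAD3 and -1.88 for FOXL2. The reads of the plasmid and of the endogenous gene are counted together, and these are transcript levels; the study examined the proteins separately, which is not analysed here. The form of FOXL2, the transcript levels of FOXL2 and SMAD3, and the presence of FOXO1 all changed between the groups and cannot be told apart in this comparison.

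**Figure D1:**
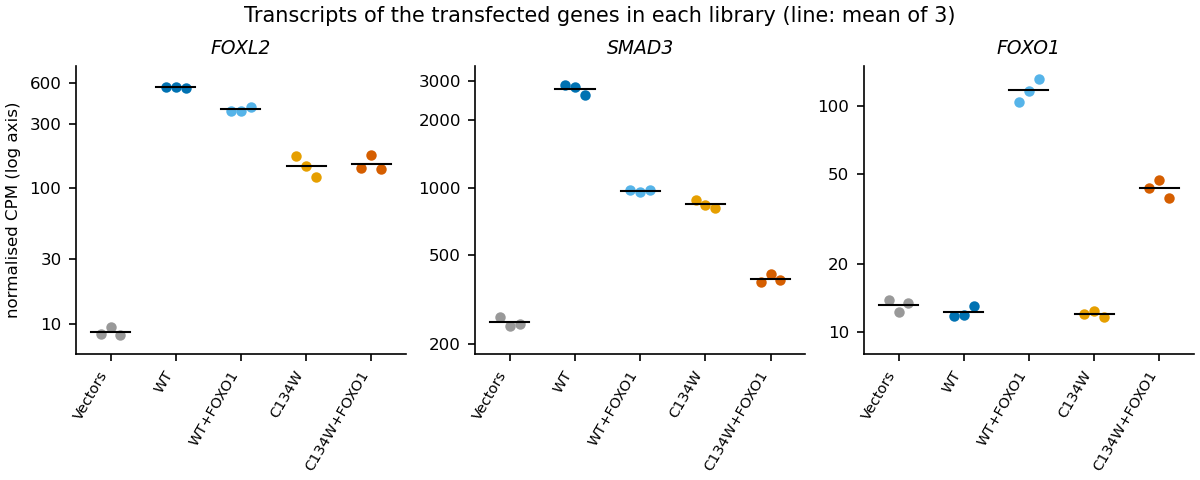
Normalised CPM (log axes) of FOXL2, SMAD3 and FOXO1 in each of the 15 libraries, by transfected plasmids; points are libraries and lines are means of 3. SMAD3 was at 379 to 411 CPM with FOXL2C134W+FOXO1 and at 2590 to 2890 CPM with FOXL2WT, and FOXO1 was raised only in the 2 groups that received it.

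Across 13868 genes tested, 234 (1.69%) passed an adjusted p of 0.05 in edgeR's quasi-likelihood test, with 95 higher in FOXL2C134W+FOXO1 (0.685%) and 139 lower (1.00%). In all 234 the 3 libraries of the groups did not overlap, as was the case for 24.3% of all genes tested. An unadjusted p under 0.05, given beside the lists below, was reached by 2572 of the 13868 genes, in either direction. Most of the differences were small. The median log2 fold change was 0.24 among the genes that rose and -0.29 among those that fell, and 22 genes differed by more than 1.5-fold, 4 upward and 18 downward. The 4 upward genes were FOXO1, MKI67, EPPK1 and PLCE1, a phospholipase gene at a mean of 3.83 CPM that was named after its values were seen. Only 9 genes differed by more than 2-fold: SMAD3, FOXL2, FOXO1, ATF3 and 5 genes with mean levels under 5 CPM. Those 5 were CXCL10, FOSB, IFNB1, NEURL3 and STK19B; the last is a near-identical copy of another gene, so its counts of 20, 8 and 18 with FOXL2WT and 0 in each FOXL2C134W+FOXO1 library are uncertain, and NEURL3 and STK19B were named after their values were seen. The direction of the calls depended on the method, since 40.6% of the calls were higher with the design used here, 62.0% of 629 with DESeq2 and 52.5% of 650 after a GC content correction. The number of calls depended on single libraries. It was 36 without FOXL2WT replicate B, the shallowest of the 6 libraries, with 3 genes higher and 33 lower, and 59 without FOXL2C134W+FOXO1 replicate C. It was 76, 115 and 136 without FOXL2WT replicate A, FOXL2WT replicate C and FOXL2C134W+FOXO1 replicate A, and 184 without FOXL2C134W+FOXO1 replicate B.

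**Figure D2:**
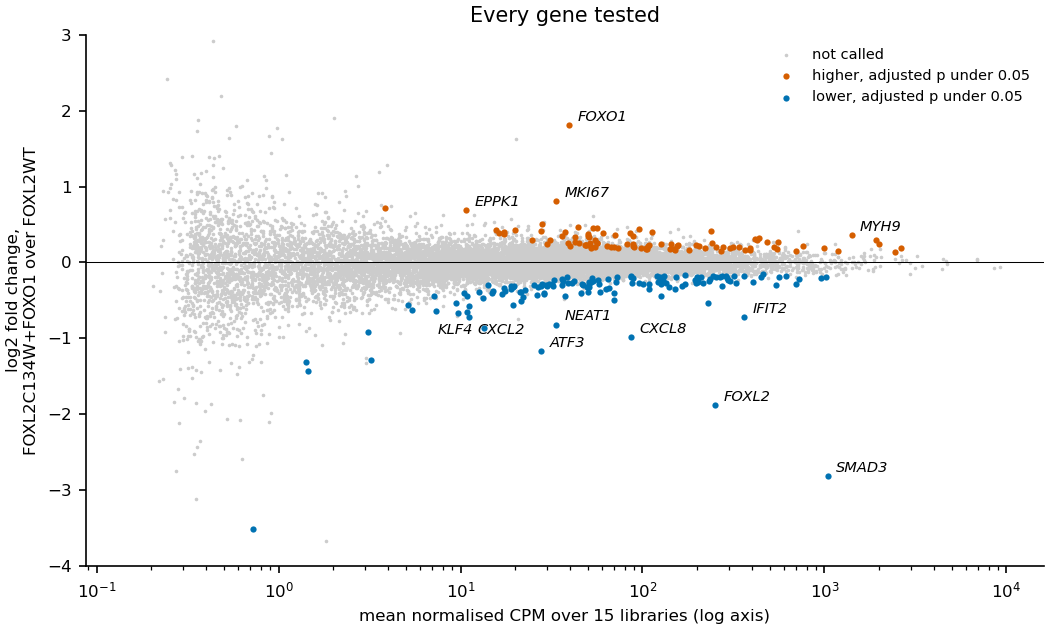
Log2 fold change of FOXL2C134W+FOXO1 over FOXL2WT against the mean normalised CPM over 15 libraries (log axis) for every gene tested; coloured points passed an adjusted p of 0.05, and 23 genes beyond the y axis are not drawn. Beyond the transfected genes, the genes that fell reached further from 0 than the genes that rose.

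Apart from the transfected genes, the 10 genes that fell furthest among those that passed at a mean of at least 5 CPM were ATF3, CXCL8, KLF4, NEAT1, IFIT2, CXCL2, ADM, IL6, MEX3B and CCL3L3. ATF3, a stress-induced transcription factor of the ATF/CREB family, was at 40.0, 46.2 and 38.9 CPM in the FOXL2WT libraries and at 18.6, 19.3 and 17.4 CPM in the FOXL2C134W+FOXO1 libraries. The highest mutant library thus lay below the lowest wild-type library by a wide margin, and the level fell by 1.17 on the log2 scale (SE 0.08, adjusted p = 3.5e-08). CXCL8, which encodes the neutrophil chemokine interleukin-8, was at 99.2, 99.7 and 93.5 CPM against 51.8, 44.6 and 51.2 CPM, a fall of nearly the same proportion (log2 fold change -0.99 ± 0.07, adjusted p = 7.3e-08). KLF4, a Kruppel-like factor linked to growth arrest and differentiation, was at 16.6, 16.2 and 15.6 CPM against 8.17, 8.95 and 9.46 CPM (log2 fold change -0.86 ± 0.08, adjusted p = 4.9e-06). NEAT1, the long non-coding RNA on which paraspeckles assemble in the nucleus, was at 34.4, 30.3 and 36.6 CPM against 18.1, 21.1 and 18.4 CPM (log2 fold change -0.82 ± 0.10, adjusted p = 2.2e-04). For each of these genes the 3 libraries of a group lay close together. That the groups did not overlap was a condition for naming them here.

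IFIT2, an interferon-induced antiviral protein, was at 436, 440 and 431 CPM with FOXL2WT and at 241, 241 and 309 CPM with FOXL2C134W+FOXO1. Its log2 fold change was -0.72 ± 0.09 (adjusted p = 2.0e-04), and replicate C of the mutant group stood above the other two. The chemokine CXCL2 fell from a mean of 10.8 ± 0.738 CPM to 6.55 ± 0.824 CPM (SD, n = 3; log2 fold change -0.72), and the cytokine IL6 from 12.4 ± 1.14 to 7.85 ± 1.23 CPM (log2 fold change -0.65). ADM, which encodes the vasodilator peptide adrenomedullin, fell by 0.66 on the log2 scale, and MEX3B, an RNA-binding protein gene, fell by 0.64. CCL3L3 fell by 0.62, but it is a near-identical copy of CCL3 and its counts are uncertain. Among these 10 genes, 7 passed the test whichever of the 6 libraries was left out; ADM passed in 2 of the 6 fits, MEX3B in 3 and CCL3L3 in 0. IL6 lost its call with DESeq2 and transcript length offsets (log2 fold change -0.48, adjusted p = 0.21).

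Promoters of genes at both ends of the ranking are shown because FOXL2, FOXO1 and SMAD3 all bind DNA, and 4 short motifs were searched in them on both strands. Sequences are from RefSeq (GRCh38.p14), 250 bases before to 50 bases after the annotated start, 5′ to 3′ on the strand of the gene. Only 1 promoter was taken per gene, the first by coordinate, so other starts of a gene were not searched. The forkhead letters GTAAACA (complement TGTTTAC) and the SMAD letters GTCTG (complement CAGAC) were joined by the NF-kappaB letters GGAATTTCC (complement GGAAATTCC) and the AP-1 letters TGACTCA (complement TGAGTCA), both added after the promoters were seen. Capitals mark matches. The promoters searched for ATF3 (chr1:212565157-212565456, plus strand) and MKI67 (chr10:128126374-128126673, minus strand) held none of these letters. CXCL8 (chr4:73740319-73740618, plus strand) held the AP-1 letters at -137 and the NF-kappaB letters at -91, counted from the start. KLF4 (chr9:107489720-107490019, minus strand) held the SMAD letters at 31, and EP400 (chr12:131949692-131949991, plus strand) held them at -231, -205 and -201, the last 2 matches overlapping by 1 base.
ATF3: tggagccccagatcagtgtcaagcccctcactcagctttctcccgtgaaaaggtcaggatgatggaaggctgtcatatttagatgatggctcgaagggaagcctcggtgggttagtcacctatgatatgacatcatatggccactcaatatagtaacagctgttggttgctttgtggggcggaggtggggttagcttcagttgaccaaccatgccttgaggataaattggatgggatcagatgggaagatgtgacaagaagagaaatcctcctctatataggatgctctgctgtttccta
CXCL8: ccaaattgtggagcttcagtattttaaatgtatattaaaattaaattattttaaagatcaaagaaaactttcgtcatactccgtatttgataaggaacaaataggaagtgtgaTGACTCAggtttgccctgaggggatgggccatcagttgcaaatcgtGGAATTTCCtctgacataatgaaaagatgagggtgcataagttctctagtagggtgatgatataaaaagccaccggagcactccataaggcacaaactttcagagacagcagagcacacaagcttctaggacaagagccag
KLF4: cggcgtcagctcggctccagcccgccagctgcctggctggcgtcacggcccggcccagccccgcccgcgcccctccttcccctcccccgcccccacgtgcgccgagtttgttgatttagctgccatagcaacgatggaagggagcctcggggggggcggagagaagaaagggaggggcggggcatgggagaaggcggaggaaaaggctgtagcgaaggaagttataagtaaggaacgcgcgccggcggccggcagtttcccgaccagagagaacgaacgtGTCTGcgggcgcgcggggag
MKI67: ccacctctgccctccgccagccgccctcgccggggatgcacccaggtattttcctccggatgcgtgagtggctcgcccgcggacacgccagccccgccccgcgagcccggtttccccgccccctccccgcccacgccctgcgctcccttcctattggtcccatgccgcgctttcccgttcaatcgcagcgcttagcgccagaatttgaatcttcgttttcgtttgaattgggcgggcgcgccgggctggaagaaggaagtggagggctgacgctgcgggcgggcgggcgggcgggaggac
EP400: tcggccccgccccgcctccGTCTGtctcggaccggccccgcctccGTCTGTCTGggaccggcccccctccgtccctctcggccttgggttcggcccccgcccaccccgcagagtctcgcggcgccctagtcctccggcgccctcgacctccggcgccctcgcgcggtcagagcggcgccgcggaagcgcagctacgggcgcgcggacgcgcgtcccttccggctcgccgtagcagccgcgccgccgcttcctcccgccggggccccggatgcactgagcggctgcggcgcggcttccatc

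A promoter, 1 per gene as above, was matched by symbol for 10794 of the genes tested. The forkhead letters were in 2.29% of these promoters, in 1 of 82 promoters of genes that rose and in 5 of 118 of genes that fell. The SMAD letters were in 43.3% of all promoters, in 37.8% for genes that rose and in 54.2% for genes that fell. The NF-kappaB letters were in 0.454% of all promoters, in 1.22% for genes that rose and in 5.93% (7 of 118) for genes that fell, and the AP-1 letters in 3.36%, 1.22% and 2.54%. Both of these motifs were added after the CXCL8 promoter, which holds both, was seen. CXCL8 is among the genes that fell, so its own matches are in these shares. The transfected genes were left out of both groups of called genes, and a match of letters says nothing about whether a factor was bound.

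Of 36 genes of the NF-kappaB pathway and inflammation tested, 9 fell and 0 rose (0 upward at an unadjusted p under 0.05, 0 by DESeq2), with a median log2 fold change of -0.235 beside -0.005 over all genes tested. CXCL10, a chemokine for T cells, fell by 1.28 on the log2 scale (adjusted p = 0.0026) at low counts of 87, 61 and 109 against 32, 42 and 52, and CXCL1, a chemokine related to CXCL2, fell by 0.91. Other secreted members did not pass, among them CCL2, LIF, IL1B and CXCL11 with log2 fold changes of -0.26, -0.18, -0.15 and -0.06. Of the inhibitors of NF-kappaB signalling on the list, TNFAIP3 and NFKBIA fell. NFKBIE, NFKBIB and TNIP1 had log2 fold changes of -0.12, -0.04 and -0.02 that did not pass. The related gene NFKBIZ, at -0.24, did not pass either. TNFAIP3, a ubiquitin-editing enzyme, fell by 0.49 (adjusted p = 4.1e-05), and NFKBIA, which holds NF-kappaB in the cytoplasm, was at 103, 105 and 104 CPM against 87.9, 85.1 and 85.2 CPM (log2 fold change -0.27, adjusted p = 6.2e-04). RELB, a subunit of the factor itself, fell by 0.43 and the adaptor TRAF1 by 0.40, whereas the subunits RELA and NFKB1 had log2 fold changes of -0.09 and -0.02 that did not pass the test. Between 7 and 9 members fell in the fits that left out 1 library.

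Of 49 interferon-response and antigen-presentation genes tested, 11 fell and 0 rose (0 upward at an unadjusted p under 0.05), and the median log2 fold change was -0.094. IFNB1, which encodes interferon beta, had 24, 21 and 24 counts with FOXL2WT and 2, 3 and 2 counts with FOXL2C134W+FOXO1, too few to give its size. ISG20, an antiviral exonuclease, was at 54.8, 55.3 and 55.9 CPM against 44.3, 43.9 and 39.1 CPM (log2 fold change -0.38, adjusted p = 0.0072). TAP1, which carries peptides to class I molecules, fell by 0.31 on the log2 scale (adjusted p = 0.0026). The neighbours RSAD2 and CMPK2, which overlap in the annotation, fell by 0.32 and 0.31. OASL, USP18, ISG15, IFIT1 and HLA-E fell by 0.18 to 0.28, and HLA-E shares sequence with other class I genes, so its value is less certain. Between 6 and 9 members fell when 1 library was left out.

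The ATF4 program, in which amino acid shortage and other stresses induce synthesis and uptake of amino acids, was lower in 12 of 41 members tested. None rose with edgeR, against 1 upward at an unadjusted p under 0.05 and 1 by DESeq2, and the median was -0.163. ATF4 itself, the activator, was at 481, 499 and 488 CPM against 426, 426 and 430 CPM, a difference of -0.20 on the log2 scale (adjusted p = 0.023). Its targets TRIB3, a pseudokinase, and PPP1R15A, a phosphatase subunit that restarts translation, fell by 0.44 and 0.36. These falls are relative to FOXL2WT, and the position against Vectors differed between genes. ATF4 and TRIB3 had Vectors means of 394 and 94.8 CPM, below those with FOXL2C134W+FOXO1 (427 and 120 CPM). PPP1R15A had a Vectors mean of 111 CPM, above its 95.4 CPM with FOXL2C134W+FOXO1, and ATF3 of 28.9 CPM, above its 18.4 CPM. The serine synthesis enzymes PSAT1 and PHGDH fell by 0.28 and 0.22, asparagine synthetase ASNS by 0.25, and the amino acid transporter subunit SLC3A2 by 0.25. The count fell to 2 without FOXL2WT replicate B and to 2 without FOXL2C134W+FOXO1 replicate C. It was 4, 6, 6 and 10 without FOXL2WT replicate A, FOXL2WT replicate C, FOXL2C134W+FOXO1 replicate A and FOXL2C134W+FOXO1 replicate B, and 20 with DESeq2.

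Of 32 known FOXO targets tested, 6 fell and 0 rose with edgeR, beside 2 upward and 13 downward at an unadjusted p under 0.05, 0 upward and 8 downward by DESeq2, and 1 upward and 9 downward with the GC content correction; the median was -0.079. With FOXL2C134W alone, 9 were lower and 1 higher than with FOXL2WT (median -0.14). In that comparison 11.2% of all genes tested passed, beside 1.69% for FOXL2C134W+FOXO1 against FOXL2WT, so the 2 counts are not directly comparable. When FOXO1 was added to FOXL2C134W, 0 passed with edgeR and the median was 0.010, beside 0 upward and 1 downward at an unadjusted p under 0.05 and 1 downward by DESeq2. PIK3IP1, an inhibitor of PI3-kinase, had 5.43, 5.84 and 5.51 CPM against 3.74, 3.66 and 3.91 CPM (log2 fold change -0.56, adjusted p = 0.043). The stress sensor SESN2 fell by 0.42, the atypical cyclin CCNG2 by 0.36, the mitochondrial superoxide dismutase SOD2 by 0.35, the thioredoxin inhibitor TXNIP by 0.29, and the cyclin-dependent kinase inhibitor CDKN1B by 0.18. PIK3IP1 and CCNG2 passed in 0 of the 6 fits that left out a library, SESN2 in 2 and SOD2 in 5. With DESeq2 and transcript length offsets PIK3IP1 and CCNG2 lost their calls (adjusted p = 0.087 and 0.28). KLF2, IRS2 and IGFBP1 had log2 fold changes of 0.24, 0.05 and 0.35 that did not pass the test. The count was 1 without FOXL2WT replicate B, 5 without FOXL2C134W+FOXO1 replicate B, 3 without FOXL2WT replicate A and 2 in each of the other 3 fits.

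Members of 3 further lists of regulators fell in small numbers. Among 26 immediate early and Kruppel-like factors, 5 fell: FOSB, KLF4, KLF11, MAFF and KLF10, with KLF10 at 142, 141 and 128 CPM against 118, 112 and 114 CPM. FOSB, an AP-1 subunit, had 52, 31 and 53 counts against 19, 19 and 27 and passed in none of the fits that left out a library. The count of 5 became 1 without FOXL2WT replicate B or FOXL2C134W+FOXO1 replicate C. Of 27 genes of cyclin-dependent kinase control and apoptosis, PMAIP1 and CDKN2D fell. PMAIP1 (NOXA), which promotes apoptosis by binding MCL1, was at 268, 273 and 253 CPM against 185, 180 and 181 CPM, with the groups far apart (log2 fold change -0.54 ± 0.04, adjusted p = 1.4e-07). CDKN2D, an inhibitor of CDK4 and CDK6, was at 12.6, 12.8 and 12.9 CPM against 9.0, 9.71 and 9.46 CPM (log2 fold change -0.44, adjusted p = 0.011). In the TGF-beta and SMAD pathway, 2 of 43 members fell: TGIF1, a repressor that binds SMADs, by 0.27, and the stress-induced ligand GDF15 by 0.45. Without FOXL2WT replicate B, 0 of the 43 passed. The median of that list was -0.041, and the ligands TGFB1 and TGFB2 had log2 fold changes of 0.03 and 0.05 (adjusted p = 0.84 and 0.49).

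**Figure D3:**
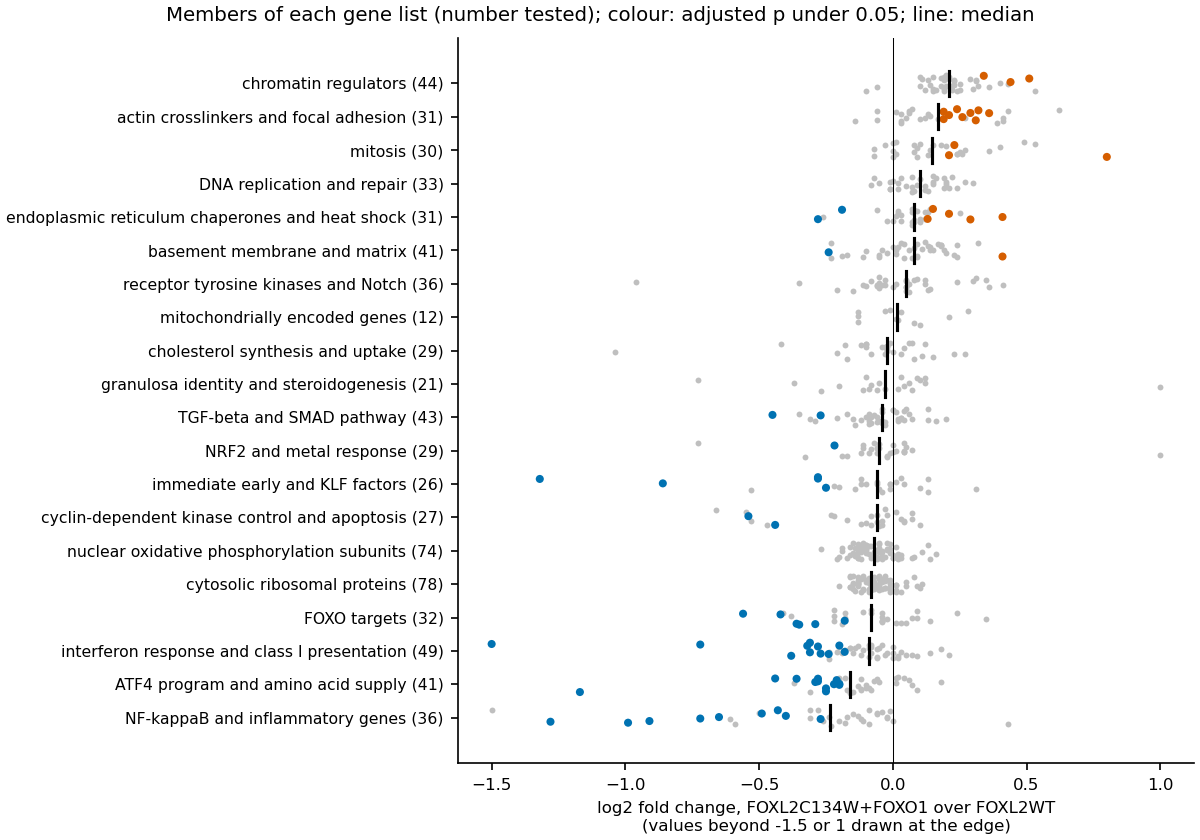
Log2 fold change of FOXL2C134W+FOXO1 over FOXL2WT for the tested members of 20 gene lists, ordered by median; each point is a gene, coloured where it passed an adjusted p of 0.05, and 2 values below -1.5 and 1 value above 1 are drawn at the edge. The medians ran from -0.235 for NF-kappaB and inflammatory genes to 0.207 for chromatin regulators.

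The 9 genes described next are from those that rose most beside FOXO1 at a mean of at least 5 CPM, and they differed by 0.42 to 0.80 on the log2 scale, against 0.62 to 1.17 for the 10 that fell furthest. MKI67, which encodes the proliferation antigen Ki-67 that coats mitotic chromosomes, was at 17.5, 19.3 and 18.7 CPM with FOXL2WT and at 29.4, 35.1 and 31.9 CPM with FOXL2C134W+FOXO1. It rose by 0.80 ± 0.17 on the log2 scale (adjusted p = 0.024), although it passed in only 1 of the 6 fits that left out a library. EPPK1 (epiplakin, a keratin-binding cytolinker) was at 7.99, 7.99 and 7.31 CPM against 10.9, 16.0 and 10.5 CPM, with replicate B of the mutant group above the other two. EP400, a remodelling ATPase that exchanges histones, was at 21.8, 18.9 and 20.6 CPM against 27.2, 30.1 and 30.1 CPM (log2 fold change 0.51 ± 0.11, adjusted p = 0.026). TCOF1, a nucleolar factor for ribosomal RNA synthesis, rose by 0.46, and RAD50, a DNA double-strand break protein, by 0.45. The motor proteins MYO9B and MYO5A rose by 0.45 and 0.42, the intermediate filament protein SYNM by 0.43 and the nuclear protein PRR12 by 0.43. MYO5A, at 23.5, 23.0 and 22.7 CPM against 30.2, 29.3 and 32.7 CPM, was the only one of these 9 to pass in all 6 fits that left out a library. TCOF1 passed in 4 of them, EPPK1 in 3, MYO9B in 2, and EP400, RAD50, PRR12 and SYNM in 1 each. With DESeq2 and transcript length offsets MYO5A, RAD50, MYO9B and PRR12 lost their calls, with log2 fold changes of 0.29, 0.36, 1.42 and 0.34 (adjusted p = 0.60, 0.25, 0.34 and 0.21), and PRR12 also lost its call under the gene length correction.

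Actin crosslinkers and focal adhesion proteins were the list with the most members that rose, 9 of 31 tested, with 0 that fell (0 downward at an unadjusted p under 0.05, 0 by DESeq2) and a median of 0.169. MYH9, the heavy chain of non-muscle myosin IIA, was at 1180, 1080 and 1150 CPM against 1360, 1540 and 1450 CPM and rose by 0.36 ± 0.05 (adjusted p = 0.0026). The filamins FLNC and FLNA, which crosslink actin, rose by 0.31 and 0.24. The cytolinker PLEC rose by 0.32, the spectrin SPTAN1 by 0.29, talin TLN1 by 0.26, ACTN4 by 0.21 and the tropomyosin TPM2 by 0.19. PLEC lost its call under the gene length correction and passed in 2 of the 6 fits without a library. FLNC also lost its call under the length correction. MYH9 passed in all 6 fits, but MYH9, PLEC and SPTAN1 lost their calls with DESeq2 and transcript length offsets (adjusted p = 0.12, 0.10 and 0.28). The count was 1 without FOXL2WT replicate B, 4 without FOXL2C134W+FOXO1 replicate B, 4 without FOXL2C134W+FOXO1 replicate C and 5 without FOXL2WT replicate A.

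Chromatin regulators had the highest median, 0.207, yet only 3 of 44 passed the test, EP400 and SMARCA4 among them. SMARCA4, the ATPase of SWI/SNF complexes, was at 73.3, 66.7 and 73.2 CPM against 82.6, 95.0 and 93.1 CPM (log2 fold change 0.34, adjusted p = 0.0071). A further measure of the list was that 32 members were higher at an unadjusted p under 0.05 and 12 passed with DESeq2; without FOXL2WT replicate B, 0 passed. Of 30 mitosis genes, MKI67, the kinesin KIF23 and the spindle assembly factor TPX2 rose, KIF23 by 0.23 and TPX2 by 0.21, and the median was 0.141; DESeq2 called 8, all higher. KIF23 and TPX2 passed in 2 and 3 of the fits without a library, and 0 mitosis genes passed without FOXL2WT replicate A, FOXL2WT replicate B or FOXL2C134W+FOXO1 replicate C. None of the 33 DNA replication and repair genes on the list passed with edgeR, against 17 upward at an unadjusted p under 0.05 and 6 by DESeq2 (median 0.098).

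In the list of endoplasmic reticulum chaperones and heat shock genes, 5 of 31 rose and 2 fell. RRBP1, the ribosome-binding protein of the endoplasmic reticulum, was at 91.5, 72.7 and 86.0 CPM against 102, 112 and 118 CPM and rose by 0.41. The cytosolic heat shock proteins HSP90AA1, HSPH1 and HSP90AB1 rose by 0.29, 0.21 and 0.13, and the lectin chaperone CALR by 0.15. The members that fell were HERPUD1, which acts in the degradation of endoplasmic reticulum proteins, by 0.28, and the transcription factor XBP1, by 0.19. In this list 0 passed in either direction without FOXL2WT replicate A, FOXL2WT replicate B or FOXL2C134W+FOXO1 replicate C. Of 41 basement membrane and matrix genes, HSPG2 (perlecan) rose and the syndecan SDC4 fell, with a median of 0.084. The balance depended on the method, since DESeq2 called 8 higher and 1 lower, the fit of only the 6 libraries compared 7 and 1, the GC content correction 5 and 1, and an unadjusted p under 0.05 held 14 and 2. HSPG2 was at 178, 171 and 166 CPM against 213, 268 and 205 CPM (log2 fold change 0.41 ± 0.10, adjusted p = 0.044) and passed in none of the fits without a library. The collagens COL4A2, COL5A1 and COL18A1 had log2 fold changes of 0.18, 0.24 and 0.09 (adjusted p = 0.059, 0.070 and 0.60).

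Several lists held few or no calls. None of 74 nuclear oxidative phosphorylation subunits, 78 cytosolic ribosomal proteins, 12 mitochondrially encoded genes, 21 genes of granulosa identity and steroidogenesis, 29 of cholesterol synthesis and uptake, and 36 receptor tyrosine kinase and Notch genes passed with edgeR. At an unadjusted p under 0.05 these lists held 12, 7, 2, 3, 10 and 8 genes, beside 2572 of all 13868 genes tested. DESeq2 called 2, 0, 0, 0, 4 and 2 in these lists. Their medians were -0.069, -0.077, 0.016, -0.028, -0.022 and 0.050. Counts of ribosomal protein genes are less certain because of their many processed copies. Among 29 NRF2 and metal-response genes, only FTL, the ferritin light chain, passed, and it fell by 0.22.

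Of 30 genes that the study names, 8 rose and 9 fell, with a median of 0.099. That list was chosen by the study on these samples and is no independent evidence of a direction. Without FOXL2WT replicate B, 1 rose and 4 fell. Besides genes given above, AMIGO2, an adhesion molecule, fell by 0.17. ACTN1, GLI2, POLQ, DLG5, ZYX, BAZ2A, EGR1 and NFKBIZ did not pass the test, with log2 fold changes between -0.24 and 0.31.

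The direct test of what FOXO1 changed in the mutant cells is the comparison of FOXL2C134W+FOXO1 with FOXL2C134W, which is also the test of the difference between the 2 mutant conditions in their distance from FOXL2WT. In it 99 genes (0.714%) passed, 1 higher, which was FOXO1, and 98 lower. Apart from SMAD3, the largest falls among genes that also passed against FOXL2WT were those of MKI67 and NEAT1. MKI67 was at 39.9, 63.9 and 60.6 CPM with FOXL2C134W and at 29.4 to 35.1 CPM with FOXO1 added (log2 fold change -0.77, adjusted p = 0.022), which put it between FOXL2WT and FOXL2C134W. NEAT1 went the other way from FOXL2WT: it was at 25.3, 29.0 and 34.7 CPM with FOXL2C134W and at 18.1 to 21.1 CPM with FOXO1 added (-0.62, adjusted p = 0.010), the lowest of the 5 conditions. SMAD3 transcripts fell by 1.11 on the log2 scale with FOXO1, so the part of SMAD3 level in these differences cannot be told apart from that of FOXO1. The number of calls rested on single libraries: it was 355 without FOXL2C134W replicate A, 231 without FOXL2C134W+FOXO1 replicate B, 11 without FOXL2C134W+FOXO1 replicate A, and 5 without FOXL2C134W replicate B, FOXL2C134W replicate C or FOXL2C134W+FOXO1 replicate C.

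The comparisons of FOXL2C134W alone and of FOXL2C134W+FOXO1 with FOXL2WT share the FOXL2WT libraries, and their values are set side by side here. Against FOXL2WT, 1560 genes (11.2%) passed for FOXL2C134W alone. The median of the chromatin regulators was 0.429 for FOXL2C134W alone and 0.207 with FOXO1, and 8 of the 44 passed as lower with FOXO1 in the direct test. For the actin and focal adhesion list the medians were 0.256 and 0.169, with 3 of 31 lower in the direct test. MYH9 had log2 fold changes over FOXL2WT of 0.70 alone and 0.36 with FOXO1, and the difference of -0.34 passed (adjusted p = 0.010). The mitochondrially encoded genes had medians of 0.415 and 0.016, and 7 of 12 were lower with FOXO1 in the direct test. For the NF-kappaB list the medians were -0.224 and -0.235, and 0 members passed in the direct test with edgeR or DESeq2, where the median was -0.037 and 8 members (1 higher, 7 lower) had an unadjusted p under 0.05. ATF3 had log2 fold changes of -0.95 and -1.17 (difference -0.23 ± 0.08, adjusted p = 0.25), CXCL8 of -0.86 and -0.99 (difference -0.12, adjusted p = 0.57) and PMAIP1 of -0.48 and -0.54 (difference -0.06, adjusted p = 0.65). A difference that missed the threshold does not show that the 2 conditions were alike.

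Between FOXL2WT+FOXO1 and FOXL2WT, 7 genes (0.0505%) passed with edgeR and 62 with DESeq2, among the 7 FOXL2, SMAD3 and FOXO1 themselves. ATF3 fell by 0.55 (adjusted p = 0.0040), KLF10 by 0.29 (adjusted p = 0.031) and CMPK2 by 0.28 (adjusted p = 0.022). That comparison is also the test of the difference between setting FOXL2C134W+FOXO1 against FOXL2WT and setting it against FOXL2WT+FOXO1. Between FOXL2C134W+FOXO1 and FOXL2WT+FOXO1, 20 genes (0.144%) passed. The interaction term, which tests whether the change with FOXO1 differed between the FOXL2 forms, passed for 192 genes (1.38%), 25 of them among the 76 genes named. CXCL8 differed by -0.82 (adjusted p = 2.1e-06), KLF4 by -0.52 and PMAIP1 by -0.35 (adjusted p = 1.4e-04) between FOXL2C134W+FOXO1 and FOXL2WT+FOXO1. In the same comparison, which is not the interaction, MKI67 and EP400 differed by 0.18 and 0.17 (adjusted p = 0.65 and 0.49). The levels with Vectors give a further reference. MKI67 was at 40.8, 32.6 and 29.6 CPM with Vectors, and its log2 difference of FOXL2C134W+FOXO1 from Vectors was -0.09. CXCL8 was at 136, 146 and 149 CPM with Vectors, 1.54 above FOXL2C134W+FOXO1 on the log2 scale. HSPG2, with a Vectors mean of 247 CPM, differed from Vectors by -0.11. Several other genes that rose against FOXL2WT also lay near Vectors. FOXL2C134W+FOXO1 differed from Vectors by 0.08 for TCOF1, 0.05 for MYO9B, 0.06 for PRR12, 0.01 for SYNM and -0.09 for RRBP1. FOXL2WT differed from Vectors by -0.38, -0.40, -0.37, -0.41 and -0.50 for the same genes. By contrast EPPK1, RAD50, MYO5A and FLNA were above Vectors with FOXL2C134W+FOXO1, by 0.84, 0.47, 0.21 and 0.25.

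**Figure D4:**
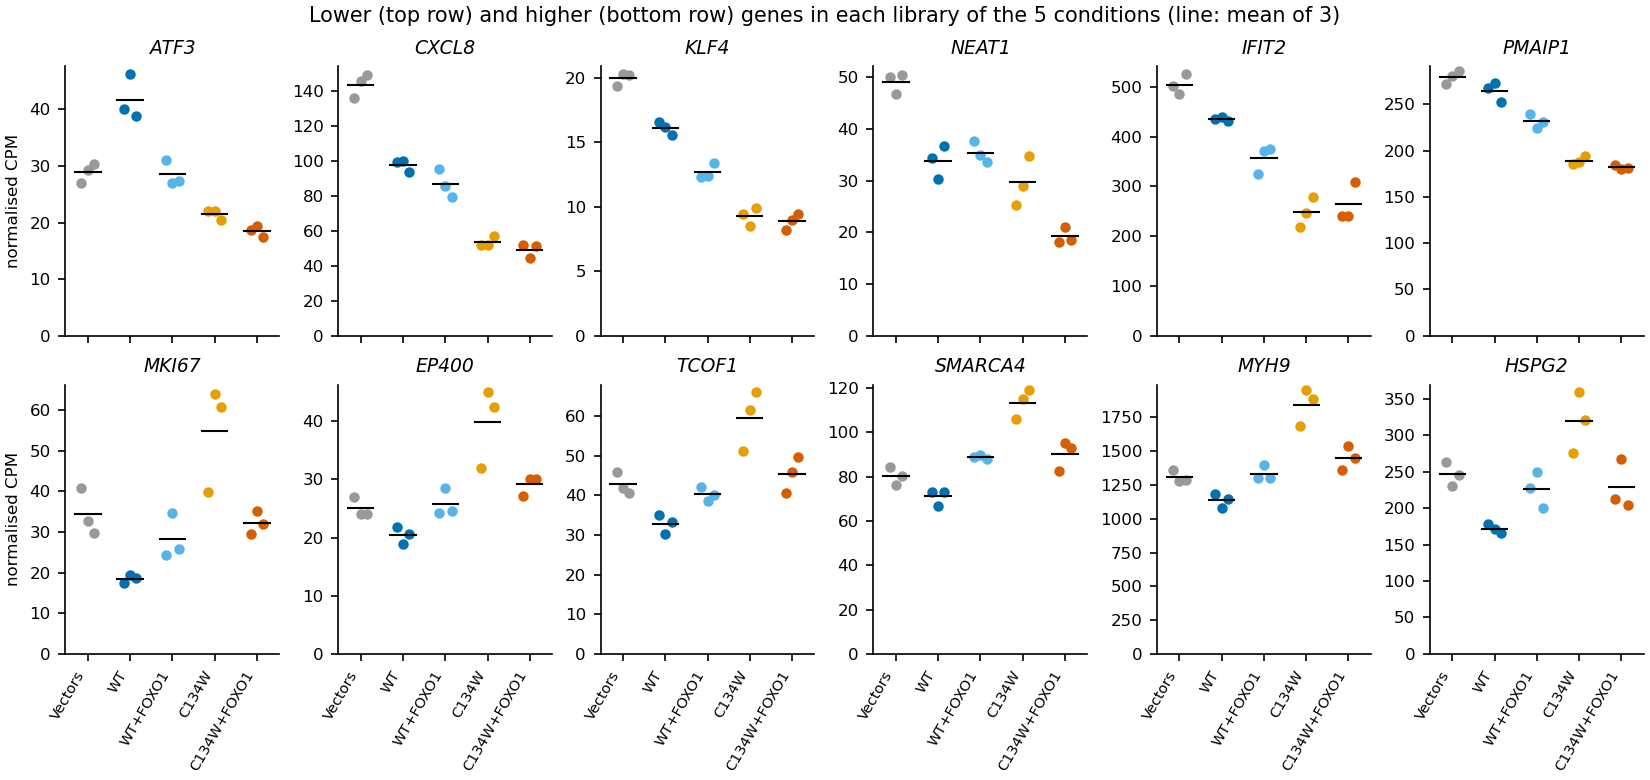
Normalised CPM of 12 genes in each of the 15 libraries by condition, with axes from 0; points are libraries and lines are means of 3. In the upper row, ATF3 and CXCL8 had lower means in both mutant conditions than with FOXL2WT; in the lower row, the 6 genes had their highest means with FOXL2C134W and lower means with FOXO1 added.

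Fold changes moved with transcript length. In 4 equal groups of the genes tested, ordered from short to long, the median log2 fold change was -0.059, -0.027, 0.008 and 0.056. Of the called genes, 5.26% rose in the shortest group (2 of 38), 27.1% and 32.3% in the middle groups, and 76.0% in the longest (57 of 75). The median length of the actin and focal adhesion genes was 3949 bases and that of the chromatin regulators 5343 bases, against 1645 bases for the NF-kappaB list and 1987 bases for the ATF4 list. With a correction for gene length, 456 genes passed, 215 higher and 241 lower. The median of the actin list was then 0.128, of the chromatin list 0.139, of the NF-kappaB list -0.223 and of the ATF4 list -0.160. Other lists depended more on the correction. Cytosolic ribosomal proteins moved from -0.077 to -0.011, nuclear oxidative phosphorylation subunits from -0.069 to -0.015 and basement membrane and matrix genes from 0.084 to 0.036. The receptor tyrosine kinase and Notch list changed sign, from 0.050 to -0.048, and the FOXO targets moved away from 0, from -0.079 to -0.112. In 4 equal groups by GC content the medians were 0.023, 0.014, -0.019 and -0.044 from low to high. The part of RNA quality or library preparation in the trend with length was not tested.

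**Figure D5:**
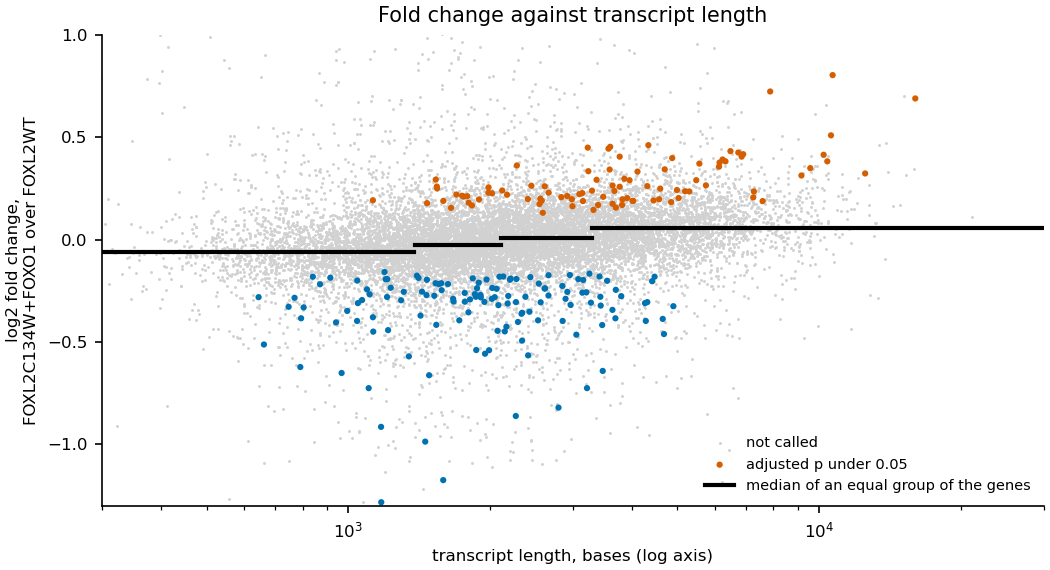
Log2 fold change of FOXL2C134W+FOXO1 over FOXL2WT against transcript length (log axis) for the genes tested; coloured points passed an adjusted p of 0.05, black lines are the medians of the 4 equal groups by length, and 131 genes outside the axes are not drawn. The medians rise from -0.059 to 0.056, and the called genes of the longest group lie mostly above 0.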

How the data were processed

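RNA-seq was done on 15 HGrC1 cultures, 3 for each of 5 plasmid mixtures, with a stranded poly(A) kit and 75-base single-end reads. The authors quantified transcripts with Salmon 1.1.0 on hg38 (release of the transcript set not given in the sources used here) and deposited estimated counts per gene, rounded to whole numbers, plus transcript tables with estimated counts, lengths and TPM; the deposited TPM values were not used. The study's own comparisons used DESeq2. Groups follow the plasmids in the labels.

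Here the counts of all 15 libraries (14962245 to 25339094 reads) were filtered with filterByExpr, which left 13868 of 37787 genes, scaled by TMM and tested with edgeR 4.0.16 (R 4.3.3; glmQLFit and glmQLFTest, Benjamini-Hochberg adjusted p under 0.05, called "passed"). All 15 libraries entered 1 fit so that they share an estimate of the spread. The scatter between replicates was not equal among the groups. As a chi-square per degree of freedom against counting noise, it ran from 2.74 for FOXL2WT to 6.45 for FOXL2C134W, with 5.52 for FOXL2C134W+FOXO1. CPM are counts per 1000000 of the TMM-scaled library, and errors are SE of the log2 fold change or SD over 3 libraries. DESeq2 1.42.0, other scalings, filters and length or GC corrections were alternatives, and the fit was checked on simulated data. Gene positions, lengths and GC content came from GENCODE 44 (GRCh38), which held 98.4% of the transcripts, and promoters from RefSeq.

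The genes named were first the transfected genes. To these came the 10 with the largest change in each direction among those that passed with groups that do not overlap and a mean of at least 5 CPM. Up to 4 members of each of 20 lists with the largest change among those that passed were added, as were genes the study names. Last came up to 3 genes per direction with the largest change in each FOXO1 comparison, among those that passed in it and also against FOXL2WT. Other members of the lists are given as examples, and results for some genes are not reported here. The comparison, the lists and the members were chosen with earlier results of these data known. With 3 against 3 libraries an exact permutation test of a single gene cannot go below 0.1, so no such test is reported.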

Additional observations from a re-analysis of the deposited data

Results flagged for a closer look

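The effect of FOXO1 differed between the FOXL2 forms by an interaction term in edgeR (log2 change with FOXO1 in FOXL2C134W minus that in FOXL2WT) for 25 of the 76 genes named, beside 1.38% of all genes tested. The named genes were mostly chosen for changes in comparisons that share these libraries, so their share is not a result about them. The transfected genes were among them, at 0.60 for FOXL2 (adjusted p = 0.033), 0.41 for SMAD3 (adjusted p = 0.0065) and -1.41 for FOXO1 (adjusted p = 4.7e-05). The plasmid transcripts thus did not change by the same amount in the 2 backgrounds, and their part in the other differences was not tested.

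Besides FOXO1, 13 of these 25 genes were higher in FOXL2C134W+FOXO1 than in FOXL2WT and had a negative interaction. It was -1.39 for MKI67 (adjusted p = 0.0067), -0.88 for HSPG2, -0.78 for EP400, -0.74 for PRR12, -0.71 for RRBP1, -0.68 for TCOF1, -0.68 for PLEC, -0.65 for MYO9B and -0.65 for SMARCA4 (adjusted p = 0.0012). It was also negative for the cytoskeletal genes MYH9 (-0.57, adjusted p = 0.0016), FLNC (-0.39), SPTAN1 (-0.39) and FLNA (-0.35). GLI2, COL5A1 and COL4A2, which did not pass against FOXL2WT, had interactions of -0.79, -0.55 and -0.37. In MKI67 the change with FOXO1 was 0.62 on the log2 scale in FOXL2WT (adjusted p = 0.25) and -0.77 in FOXL2C134W (adjusted p = 0.022).

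Among genes that were lower, NEAT1 had an interaction of -0.68 (adjusted p = 0.018), since FOXO1 changed it by 0.05 with FOXL2WT and by -0.62 with FOXL2C134W. The interaction was positive for RSAD2 (0.52, adjusted p = 0.013), CMPK2 (0.34), KLF10 (0.31), NFKBIA (0.30, adjusted p = 0.0083) and XBP1 (0.24). The adjusted p of these 25 genes ran from 4.7e-05 to 0.046, and the groups of 3 libraries were too small for a search for single outlying values.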

How the results depend on the processing

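Of the 63 named genes that passed, none changed direction under any alternative in which it had a value, and 46 passed in every alternative that kept all libraries and gave them an adjusted p; 21 passed whichever of the 6 libraries was left out. For FOXL2C134W+FOXO1 against FOXL2WT, the 234 calls became 629 with DESeq2, 650 with a GC content offset, 456 with a gene length offset, 518 with only the 6 libraries compared and 1046 (of 22745 genes) with a filter of at least 1 count in any library; DESeq2 with transcript length offsets gave 233, RLE scaling 246 and at least 10 counts in every library 296. Leaving out 1 library gave 36 to 184. Against FOXL2C134W, the 99 calls became 214 with DESeq2, 56 with DESeq2 and transcript length offsets, 42 with the GC content offset, 463 with at least 1 count in any library, 170 with at least 10 counts in every library, 32 with only the libraries compared, and 5 to 355 with 1 library left out. For FOXL2WT+FOXO1 against FOXL2WT, the 7 calls became 62 with DESeq2, with and without transcript length offsets, 22 with the GC content offset, 26 with the gene length offset, 260 with at least 1 count in any library, 13 with at least 10 counts in every library, 14 with only the libraries compared, and 2 to 7 with 1 library left out. Fits on fewer libraries or genes differ by construction; otherwise the cause was not tested. Leaving out 1 library turned the sign of 4 named genes that did not pass: COL18A1 ranged from -0.00503 to 0.161, TGFB1 from -0.0254 to 0.0871, ZYX from -0.0411 to 0.10 and EGR1 from -0.0229 to 0.220, with the negative values without FOXL2C134W+FOXO1 replicate B or FOXL2WT replicate B.

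Same-lettered libraries did not deviate together (correlations between -0.032 and 0.124), so the letters were not used to pair them; a replicate block gave 270, 88 and 7 calls in the 3 comparisons, and a replicate block with the gene length offset 485, 104 and 22. Depth limits genes of few counts, such as IFNB1, where counts give no size.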
